A study of Danio rerio with 35 samples.

Results

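Mitochondria make few of their own proteins and take in nearly all the rest from the cytosol. The nuclear genes that serve this traffic, fold and trim the arriving proteins, shape the inner membrane and let the organelle fuse and divide were read in hearts of adult zebrafish (Danio rerio). They were chosen by symbol, as genes of the count table whose names start with timm, tomm, chchd, pmpc, samm50, phb, immt, apoo, afg3l, yme1l, clpx, mff, mfn1 or mfn2, or are hspd1, hspe1, hspa9, clpp, opa1 or dnm1l. This gave 53 of the 14781 genes listed, of which 52 had enough counts to test. The same choice covers lonp1 and fis1, but the count table has no row under those symbols, so they were not analysed here. Messenger RNA of whole hearts was sequenced in 4 libraries from wild-type (WT) fish and 4 from fish that overexpress klf1, a zinc-finger transcription factor known from red blood cell development, in a study of cardiomyocyte renewal. The labels give no age beyond adult, and no promoter, tissue, duration or strain for the overexpression. They do not say that libraries came from separate animals, so the spread between libraries may be technical.

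Import begins at the outer membrane, where receptors and a channel of the TOM complex admit precursors and the SAM complex inserts barrel-shaped proteins. Small chaperones of the TIM family carry hydrophobic precursors across the space between the membranes, and the TIM23 complex with its Hsp70 motor draws the others into the matrix, where a processing peptidase removes their targeting signal. The matrix chaperonin then folds them and proteases clear those that fail. The MICOS complex holds the necks of the cristae, the inner membrane folds that carry the respiratory chain, and mitofusins, Opa1 and the dynamin Drp1 set the balance of fusion and fission. Heart muscle is dense in mitochondria, and mice without mitofusins or Opa1 in the heart are known to develop cardiomyopathy.

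Libraries held 9829896 to 13083853 counts. Levels are CPM, counts brought to a common library size with TMM factors, and changes are log2 fold changes, klf1 minus WT, from edgeR's quasi-likelihood test fitted over 10493 genes, with calls made where the Benjamini-Hochberg adjusted p was below 0.05. klf1 read 173, 268, 296 and 128 CPM in WT and 594, 655, 732 and 601 CPM in klf1 libraries, a log2 fold change of 1.58 ± 0.24 (SE; edgeR adjusted p = 0.000126), and its groups did not overlap. WT library 3 stood apart for the genes described here, being the highest WT library for 22 and the lowest for another 22 of the 52. WT library 1 was highest for 24 and WT library 4 lowest for 22. The klf1 libraries were uneven too, with libraries 1 and 2 the highest for 27 and 23 genes and libraries 3 and 4 the lowest for 19 and 23. The genotypes differed across much of the transcriptome. Of all tested genes, 29.4% were called lower and 32.2% higher, and 27.2% had every klf1 library below every WT library while 29.8% had every one above. All these depend on the scaling, since with library totals alone the middle value over all tested genes moved from 0.03 to 0.75.

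The mitochondrial import, quality control and shape genes were lower almost throughout. Of the 52 tested, 46 were called lower and 1 higher, against the 29.4% lower and 32.2% higher among all genes, and 29 were called lower with a log2 value of -1 or beyond, against 15.4% of all genes. The median was -1.09, a 2.13-fold lower level. In 42 genes the 4 klf1 libraries all lay below the 4 WT libraries, against 27.2% of all genes. With library totals 26 were called lower and 6 higher, against 13.3% and 65.1% of all genes, and the median was -0.37. Relative to the median of all genes, which takes out the shift that a scaling gives every gene, the median was -1.12. Of the 52 genes, 51 lay below the median of all genes, which by definition splits all genes evenly. Among the 51, apoob, tomm20 and tomm40l lay within their SE of that median. In bulk tissue, fewer cells of a type and less RNA per cell cannot be told apart.

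**Figure D1:**
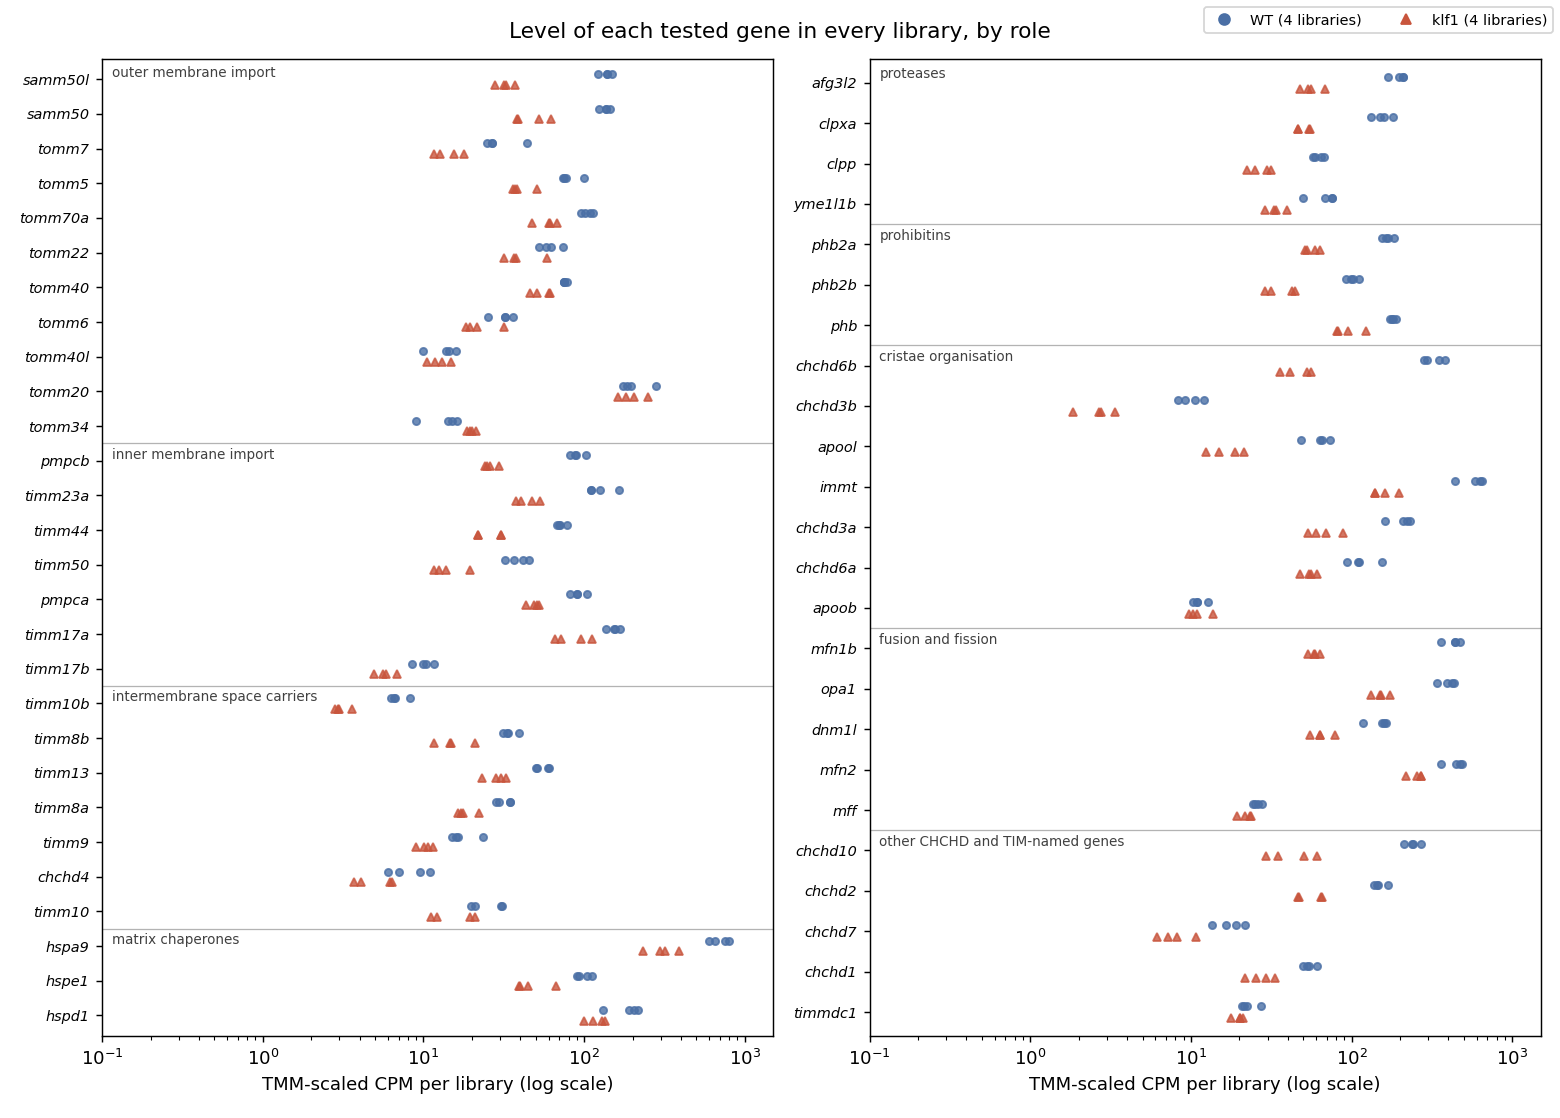
TMM-scaled CPM (log axis) of the 52 tested genes in each of 4 WT (circles) and 4 klf1 (triangles) libraries, grouped by role. For 42 genes all klf1 libraries lie below all WT libraries, against 27.2% of all tested genes. tomm34 shows the reverse order, and tomm20, tomm40l and apoob overlap widely.

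The size of the fall varied by role. Relative to the median of all tested genes, the median of each role was -0.61 on the log2 scale for the outer membrane import genes, -0.82 for the intermembrane space carriers, -1.09 for the matrix chaperones, -1.17 for the other CHCHD and TIM-named genes, -1.23 for fusion and fission, -1.44 for the proteases, -1.48 for inner membrane import, -1.49 for the prohibitins and -1.89 for cristae organisation. These medians are descriptions of groups of 3 to 11 genes, and no test compared the groups.

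**Figure D2:**
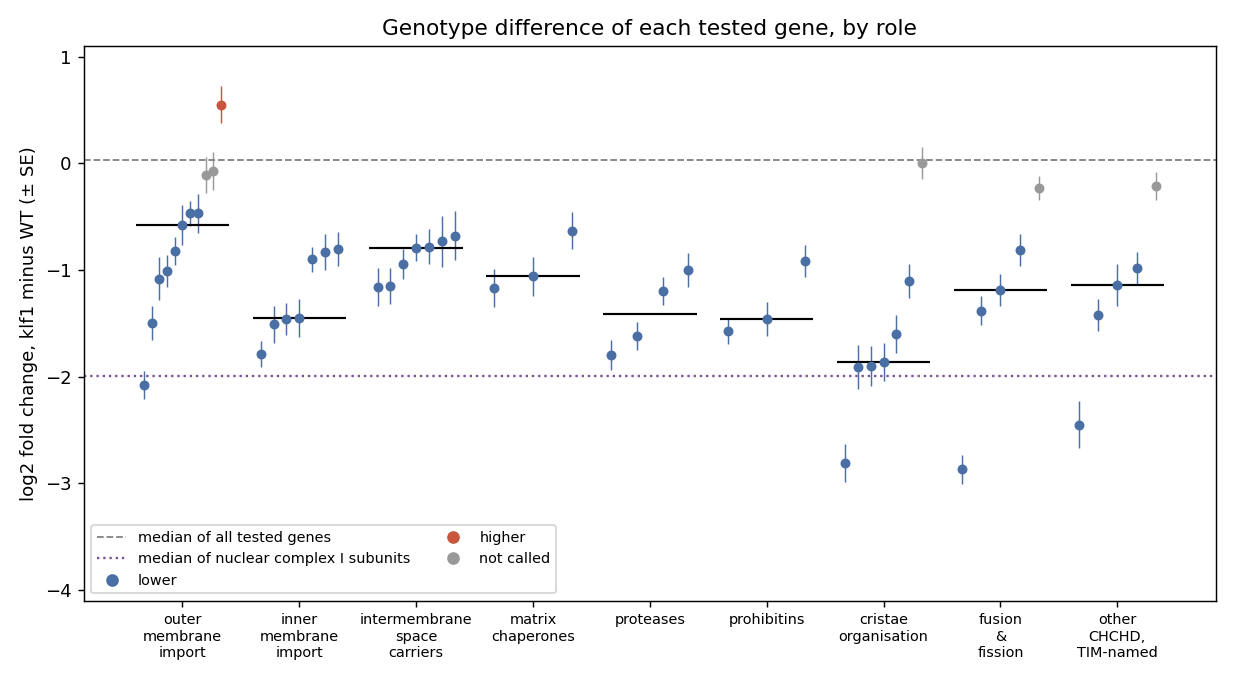
Log2 fold change, klf1 minus WT (± SE from edgeR), of each tested gene by role, with the median of each role as a black bar. The dashed line is the median of all tested genes (0.03) and the dotted line that of the nuclear complex I subunits (-1.99). Of the 7 cristae genes, apoob and chchd6a lie above every complex I subunit, and samm50l is the one outer membrane gene below the dotted line. With library totals all values shift upward together and the outer membrane median becomes 0.13.

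At the outer membrane the barrel-insertion genes and the TOM genes behaved unequally. Both copies of Sam50, the core of the SAM complex, were far lower. samm50l read 139, 148, 122 and 138 CPM in WT and 32.7, 37.2, 27.7 and 31.6 CPM in klf1 libraries, a log2 fold change of -2.08 ± 0.13 (SE, 4 libraries each; edgeR adjusted p = 1.19e-07). samm50 read 145, 136, 124 and 136 CPM against 52.1, 61.9, 38.2 and 38.6 CPM (-1.5 ± 0.16, edgeR adjusted p = 7.93e-06). In both genes the groups lay well apart. They are close copies, so reads may have been divided between them.

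Most TOM genes had smaller log2 fold changes, and one receptor gene was not called. tomm20, a receptor for targeting signals, read 197, 175, 282 and 184 CPM in WT and 248, 163, 204 and 183 CPM in klf1 libraries (-0.07 ± 0.18, edgeR adjusted p = 0.765). Its highest value was in WT library 3 and its groups overlapped. Without that library its log2 fold change was 0.1, it was 0.01 without klf1 library 2 or with upper-quartile factors, and it was called higher with library totals (0.65). The central receptor tomm22 fell by 0.58 ± 0.19, a call with overlapping groups that was lost without klf1 library 2, 3 or 4 (-0.53 to -0.47, edgeR adjusted p 0.0522 to 0.0626), and it read 0.13 with library totals.

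The channel gene tomm40 read 78.4, 74.5, 74.5 and 75.4 CPM in WT and 61.2, 60.1, 50.9 and 46.2 CPM in klf1 libraries, without overlap. It fell by 0.47 ± 0.12 (SE; edgeR adjusted p = 0.00493), and the sign turned to 0.24 with library totals, uncalled. Its relative tomm40l read 13.8, 14.5, 10 and 15.9 CPM in WT and 11.8, 14.8, 13.1 and 10.5 CPM in klf1 libraries, with overlap (-0.11 ± 0.17, edgeR adjusted p = 0.585), uncalled, but was called higher with library totals (0.6). tomm70a, the receptor for carrier proteins, fell by 0.82 ± 0.13. The small channel subunits tomm5 and tomm7 fell by 1.01 ± 0.15 and 1.08 ± 0.2. Another, tomm6, fell by 0.47 ± 0.18, with overlapping groups. That call was lost without WT library 1, 2 or 3, without klf1 library 2, 3 or 4 and with upper-quartile factors (-0.47 to -0.39, edgeR adjusted p 0.0747 to 0.116), and the value was 0.24 with library totals.

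The one gene called higher, tomm34, encodes a cytosolic co-chaperone and not a channel subunit. It read 16.1, 14.2, 8.92 and 15.1 CPM in WT and 18.7, 21.2, 19.5 and 20 CPM in klf1 libraries (0.55 ± 0.17, edgeR adjusted p = 0.0137). Every klf1 library lay above every WT library, and WT library 3 was the lowest. Its log2 fold change ranged from 0.38 to 0.63 when single libraries were left out and its call held in each case. In all, 8 of the 11 outer membrane genes were called lower and 1 higher, against 29.4% and 32.2% of all genes, and 2 were not called. With library totals 2 were lower and 3 higher, against 13.3% and 65.1% of all genes.

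All 7 genes of import across and behind the inner membrane were lower, each without overlap between groups. Among all tested genes 29.4% were called lower and 27.2% had every klf1 library below every WT library. With library totals 4 of the 7 remained called lower, against 13.3% of all genes. timm23a, a channel subunit of the TIM23 complex, read 126, 110, 164 and 110 CPM in WT and 53.4, 47.7, 37.7 and 40.4 CPM in klf1 libraries (-1.51 ± 0.17, edgeR adjusted p = 7.99e-06). Its channel partner timm17a read 168, 153, 156 and 137 CPM in WT and 112, 95.5, 66.2 and 72 CPM in klf1 libraries and fell by 0.83 ± 0.17, and timm17b fell by 0.8 ± 0.16. timm50, the receptor that hands precursors to the channel, fell by 1.45 ± 0.18, and timm44, which tethers the Hsp70 motor, by 1.46 ± 0.15.

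The processing peptidase, a dimer of a substrate-holding alpha and a catalytic beta subunit, was lower in both subunits. The alpha gene pmpca read 104, 90.2, 81.9 and 90.1 CPM in WT and 49, 52.6, 51 and 43.6 CPM in klf1 libraries (-0.9 ± 0.12, edgeR adjusted p = 3.84e-05). The beta gene pmpcb read 103, 89.2, 81.5 and 87.9 CPM in WT and 26, 29.6, 24.9 and 24 CPM in klf1 libraries (-1.79 ± 0.12, edgeR adjusted p = 2.54e-07). With library totals pmpcb was still lower (-1.08) and pmpca was uncalled (-0.18).

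The intermembrane space carriers fell by modest and similar amounts. All 7 were called lower, against 29.4% of all tested genes, with log2 fold changes between -1.16 and -0.68. The chaperone ring of Tim9 and Tim10 was represented by timm9, from 17.7 ± 3.98 to 10.3 ± 1.05 CPM (SD, n = 4), and timm10, from 25.5 ± 5.9 to 16 ± 4.99 CPM. timm8b, of the Tim8 and Tim13 ring, read 31.2, 33, 39.2 and 33.4 CPM in WT and 20.9, 14.7, 14.8 and 11.6 CPM in klf1 libraries (-1.15 ± 0.17, edgeR adjusted p = 9.96e-05), and its groups did not overlap. Its paralog timm8a fell by 0.79 ± 0.13. Their partner timm13 read 60, 50.6, 59.2 and 49.8 CPM in WT and 32.7, 30.4, 28.4 and 23 CPM in klf1 libraries, also without overlap, and fell by 0.94 ± 0.14. timm10b, whose product joins Tim9 and Tim10 at the carrier translocase, fell by 1.16 ± 0.18 from 6.92 ± 0.872 CPM.

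The weakest of these calls were timm10 (-0.68 ± 0.23) and chchd4 (-0.73 ± 0.24), the oxidoreductase that folds proteins of this space. Groups of both genes overlapped. The timm10 call was lost without WT library 1 or 3 or klf1 library 3 or 4 (-0.59 to -0.53, edgeR adjusted p 0.0618 to 0.0698). The chchd4 call was lost without WT library 1 or klf1 library 3 or 4 (-0.63 to -0.58, edgeR adjusted p 0.0603 to 0.0709). With library totals only timm8b and timm10b were still called lower, against 13.3% of all genes, and timm10 read 0.04.

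All 3 matrix chaperones were called lower, against 29.4% of all tested genes, by unequal amounts. hspa9, mitochondrial Hsp70 (mortalin), which pulls precursors inward and folds them, read 799, 749, 595 and 648 CPM in WT and 392, 320, 295 and 234 CPM in klf1 libraries (-1.17 ± 0.18, edgeR adjusted p = 0.000136). hspe1, the Hsp10 lid of the chaperonin, read 104, 90.4, 112 and 92.3 CPM against 67.2, 44.6, 40.1 and 39.5 CPM (-1.06 ± 0.18, edgeR adjusted p = 0.000225). Neither gene's groups overlapped.

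hspd1, the Hsp60 barrel, had the smallest log2 fold change of the 3. It read 215, 189, 131 and 204 CPM in WT and 134, 129, 114 and 100 CPM in klf1 libraries (-0.63 ± 0.17, edgeR adjusted p = 0.00592), and its groups overlapped through WT library 3. With library totals hspa9 was still called lower (-0.46), hspe1 was not (-0.35), and hspd1 read 0.08, the opposite sign. hspd1 and hspe1 are next to each other among protein-coding genes in RefSeq's annotation of GRCz12tu, the only neighbours among the 50 symbols that matched it. The cytosolic chaperonin subunits (cct2 to cct8 and tcp1), a list set beside them, had a median of -0.26. Of 7 tested, 3 were called lower and 0 higher at the same threshold, against 29.4% and 32.2% of all genes. With library totals 0 of that list were lower and 4 higher, against 13.3% and 65.1% of all genes.

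The 4 protease genes were all called lower, against 29.4% of all tested genes. afg3l2, of the m-AAA protease that faces the matrix, read 208, 209, 169 and 198 CPM in WT and 53.4, 68.5, 47.5 and 56 CPM in klf1 libraries (-1.8 ± 0.14, edgeR adjusted p = 6.73e-07). clpxa, an unfoldase of the matrix ClpXP protease, read 181, 150, 132 and 159 CPM against 46.2, 54.8, 46.7 and 54.3 CPM (-1.62 ± 0.13, edgeR adjusted p = 8.45e-07). Both pairs of groups were separated by a wide gap. The peptidase clpp fell by 1.2 ± 0.13 and yme1l1b, of the i-AAA protease that cuts Opa1, by 1 ± 0.16. With library totals yme1l1b lost its call (-0.28) and the other 3 kept theirs, while 13.3% of all genes were called lower.

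The prohibitins, ring-forming scaffolds of the inner membrane that bind the m-AAA protease, were also lower. phb2a read 184, 169, 154 and 165 CPM in WT and 59.3, 63.5, 51.6 and 52.7 CPM in klf1 libraries (-1.57 ± 0.12, edgeR adjusted p = 5.74e-07). phb2b read 112, 98.7, 102 and 91.9 CPM in WT and 42.4, 44.4, 31.4 and 28.8 CPM in klf1 libraries (-1.46 ± 0.16). phb, the other ring subunit, read 181, 179, 188 and 173 CPM against 123, 95.4, 81.8 and 80.7 CPM (-0.92 ± 0.15, edgeR adjusted p = 0.000181). It lost its call with library totals (-0.21).

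Cristae genes had the deepest median of the roles. immt, the Mic60 core of MICOS, read 647, 628, 442 and 584 CPM in WT and 162, 196, 139 and 139 CPM in klf1 libraries (-1.86 ± 0.18, edgeR adjusted p = 2.62e-06). chchd3a, for the subunit Mic19 that links Mic60 to Sam50, went from 206 ± 30.6 to 68.1 ± 15.4 CPM (SD, n = 4; -1.6 ± 0.18 SE). Its paralog chchd3b fell by 1.91 ± 0.21, and apool (Mic27) fell by 1.9 ± 0.19. The latter read 73.9, 63.9, 48.3 and 65.3 CPM in WT and 12.4, 21.3, 18.9 and 14.9 CPM in klf1 libraries. With library totals immt, chchd3a, chchd3b and apool stayed called lower, as did chchd6b and chchd6a, described next. In that fit 6 of the 7 tested cristae genes were lower and 1 higher, against 13.3% and 65.1% of all genes.

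The paralogs for Mic25 had different log2 fold changes. chchd6b read 350, 293, 380 and 281 CPM in WT and 52.9, 55.6, 36 and 41.6 CPM in klf1 libraries, 7.01-fold lower (-2.81 ± 0.18, edgeR adjusted p = 1.40e-07). chchd6a read 111, 93.3, 154 and 110 CPM against 60.7, 54.3, 48 and 55.7 CPM, 2.14-fold lower (-1.1 ± 0.16, edgeR adjusted p = 7.53e-05). Neither gene's groups overlapped.

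apoob, one of the Mic26 paralogs, was the exception among the cristae genes. It read 10.9, 10.9, 12.8 and 10.3 CPM in WT and 10.9, 10.3, 9.8 and 13.8 CPM in klf1 libraries, 99.8% of the WT level (edgeR adjusted p = 0.992). Its groups coincided, and with library totals it was called higher (0.72). The other, apooa, was listed at 0 in all 8 libraries, which allows up to 0.178 to 0.378 CPM per library (3 counts, counting error only). It was not tested.

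The largest fall of the 52 was in a fusion gene. mfn1b, a mitofusin that tethers outer membranes, read 474, 442, 359 and 441 CPM in WT and 59.3, 63.5, 53.9 and 58 CPM in klf1 libraries, 7.31-fold lower (-2.87 ± 0.14, edgeR adjusted p = 3.26e-08). mfn2, the mitofusin that also tethers mitochondria to the endoplasmic reticulum in mammals, read 490, 476, 360 and 450 CPM in WT and 255, 270, 219 and 269 CPM in klf1 libraries, 1.76-fold lower (-0.81 ± 0.15, edgeR adjusted p = 0.000459). With library totals mfn1b was still lower by 2.16 on the log2 scale while mfn2 was uncalled (-0.1).

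The dynamins of inner membrane fusion and of fission were both lower. opa1, the dynamin that fuses inner membranes and shapes cristae, read 434, 420, 338 and 393 CPM in WT and 150, 173, 132 and 153 CPM in klf1 libraries (-1.38 ± 0.14, edgeR adjusted p = 4.88e-06). dnm1l, encoding the fission dynamin Drp1, read 164, 160, 118 and 155 CPM against 63.7, 78.5, 63.5 and 55.3 CPM (-1.19 ± 0.15, edgeR adjusted p = 2.52e-05). Both stayed called lower with library totals. mff, a receptor that draws Drp1 to the outer membrane, was not called. It read 26, 27.7, 25.1 and 24.5 CPM in WT and 21.6, 23.8, 23.3 and 19.5 CPM in klf1 libraries (-0.23 ± 0.11, edgeR adjusted p = 0.101), without overlap between groups, and it was called higher with library totals (0.49).

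Of 5 further genes chosen by name, 4 were called lower, against 29.4% of all tested genes. chchd10, which human genetics ties to motor neuron disease and myopathy, read 272, 239, 242 and 212 CPM in WT and 50.9, 60.6, 29.4 and 35 CPM in klf1 libraries, 5.48-fold lower (-2.45 ± 0.22, edgeR adjusted p = 1.44e-06). Its relative chchd2 read 169, 143, 147 and 138 CPM in WT and 65.8, 64.1, 46.2 and 47.1 CPM in klf1 libraries (-1.42 ± 0.15). Groups of neither gene overlapped. chchd1, a mitochondrial ribosome subunit, fell by 0.98 ± 0.15 and chchd7 by 1.14 ± 0.2. timmdc1, an assembly factor of complex I despite its name, read 21.5, 22.5, 27.2 and 20.7 CPM in WT and 21.2, 17.7, 20.1 and 20.3 CPM in klf1 libraries, with overlap (-0.21 ± 0.13, edgeR adjusted p = 0.162) and was called higher with library totals (0.5).

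Ratios of counts taken within a library do not depend on the scaling, and they show how a pair of genes differed relative to each other between genotypes. Across genes such a ratio also reflects transcript length, so only its difference between genotypes is read. Ratios were formed for 16 pairs of genes that act in the same complex or process, here called partners, and 9 pairs of paralogs. Genotypes did not overlap in 9 of the 25. Of single tested genes, 27.2% had every klf1 library below every WT library and 29.8% had every one above. No share was computed for other gene pairs, so the count is not read as particular to these pairs. Each pair without overlap reached the smallest exact two-sided permutation p that 4 libraries against 4 allow (p = 0.0286, 70 assignments). Adjusted over the 25 pairs this permutation p was 0.0794, so no pair passed the correction. Because the smallest p is fixed by the number of libraries, no pair could pass by itself, however large its difference.

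The mitofusin ratio differed most. mfn2 over mfn1b was 1.03, 1.08, 1 and 1.02 in WT and 4.29, 4.24, 4.05 and 4.63 in klf1 libraries, a 4.16-fold difference (exact permutation p = 0.0286; adjusted 0.0794). pmpca over pmpcb was 1.01, 1.01, 1 and 1.03 in WT and 1.89, 1.78, 2.05 and 1.82 in klf1 libraries, a 1.86-fold difference with the same exact permutation p. In both pairs the 4 WT libraries lay within a narrow band, WT library 3 included. phb over the summed phb2 genes ranged from 0.61 to 0.735 in WT and from 0.883 to 1.21 in klf1 libraries, without overlap.

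Among the other partners without overlap, tomm20 over tomm22 was 1.46-fold higher in klf1 hearts. timm23a over the summed timm17 genes was 1.57-fold lower and opa1 over yme1l1b 1.32-fold lower. Among the paralogs, chchd6a over chchd6b was 0.316, 0.318, 0.404 and 0.392 in WT and 1.15, 0.976, 1.33 and 1.34 in klf1 libraries, a 3.35-fold difference. chchd2 over chchd10 differed 2.1-fold and samm50 over samm50l 1.47-fold, both higher in klf1 hearts. Paralog ratios are uncertain where reads of close copies were divided.

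The remaining 16 pairs overlapped. immt over the summed samm50 genes, which join MICOS to the outer membrane, differed by -0.07 on the log2 scale (SD 0.16 in WT and 0.06 in klf1). timm9 over timm10 differed by -0.07 (SD 0.26 and 0.36) and the timm8 genes over timm13 by -0.03 (SD 0.1 and 0.14). opa1 over dnm1l differed by -0.19 (SD 0.08 and 0.17). hspd1 over hspe1 was 2.06, 2.09, 1.17 and 2.21 in WT and 2, 2.88, 2.83 and 2.54 in klf1 libraries (exact permutation p = 0.114), overlapping through klf1 library 1.

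**Figure D3:**
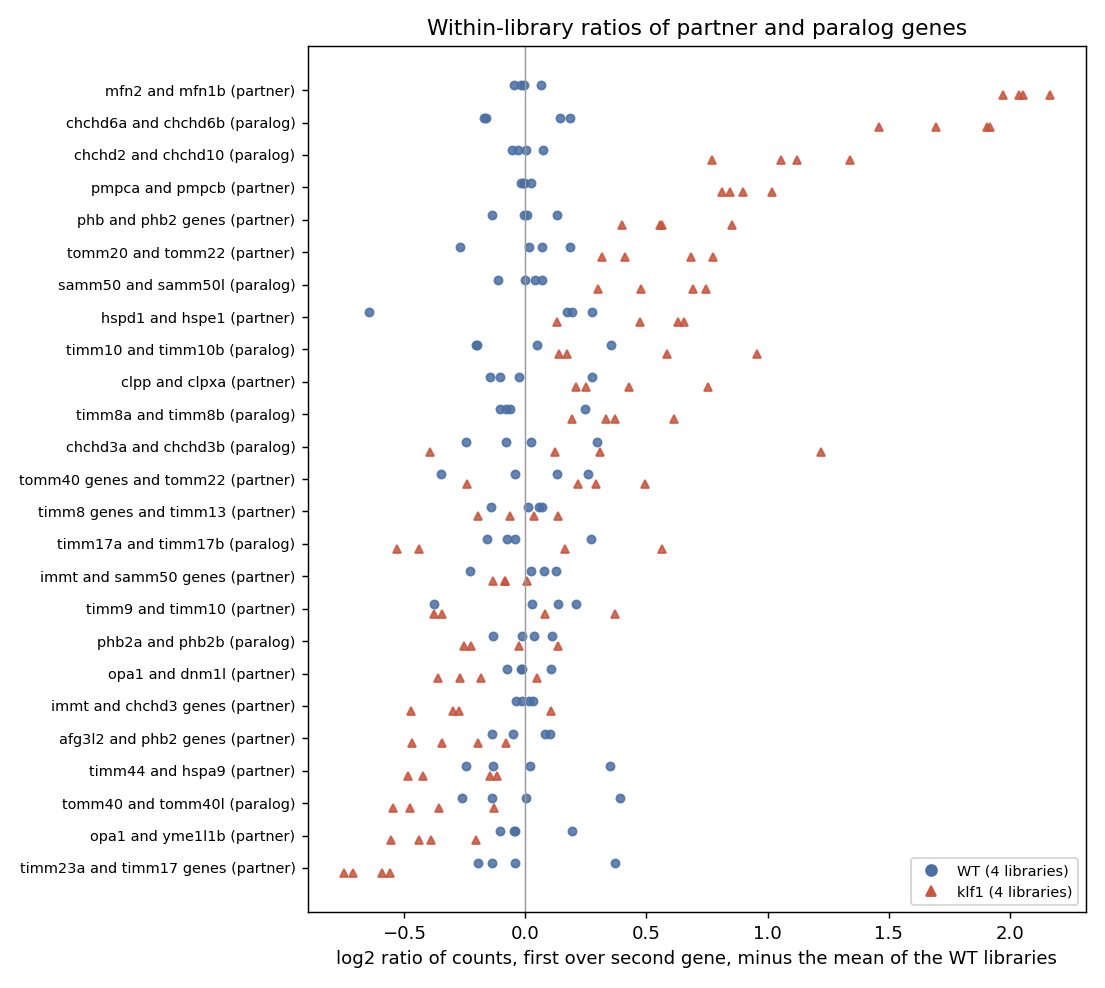
Within-library log2 ratio of counts of the first over the second gene (or summed genes), for 16 partner and 9 paralog pairs, with the mean of the WT libraries set to 0. Circles are 4 WT and triangles 4 klf1 libraries. The mfn2 over mfn1b and chchd6a over chchd6b ratios lie farthest to the right, and the timm23a over timm17 ratio is at the bottom.

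The import genes were then set beside the respiratory chain they serve. All 34 tested nuclear subunits of complex I, the largest respiratory complex, were lower, with a median of -1.99 and a smallest fall of 1.18 (range -2.58 to -1.18). Of the 52 genes described here, 31 had a log2 fold change above that of every one of these subunits. They included 19 of the 25 import genes and 2 of the 7 tested cristae genes. The share of all tested genes above these subunits was not computed. However, their median was 0.03, and 15.4% of them were called lower with a log2 value of -1 or beyond. Most genes thus also lay above the complex I range, and these counts are not read as particular to the 52. Only mfn1b, chchd6b, chchd10 and samm50l fell further than the complex I median. Mitochondrial ribosomal proteins lay between, with a median of -1.3 and 66 of 68 tested called lower, 52 of them also with library totals. Of all tested genes, 29.4% were called lower, and 13.3% with library totals.

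As a share of the summed CPM of complex I, outer membrane import was 5.84% to 6.56% in WT and 12.6% to 17.8% in klf1 libraries. The carriers were at 1.21% to 1.28% and 2.42% to 3.04%, and the chaperones at 4.95% to 7.75% and 11.5% to 15.3%. None of these 3 shares overlapped between genotypes. The same held for inner membrane import (means 4.06% in WT and 6.81% in klf1) and the prohibitins (3.14% and 5.08%). It also held for fusion and fission (10.2% and 15.1%) and the other CHCHD and TIM-named genes (3.38% and 4.16%). For fusion and fission the mean klf1 share was 1.48 times the WT share. Without mfn2, the most counted gene of that role, it was 1.16 times and the groups overlapped. The share of the cristae genes was 9.17 ± 1.38% in WT and 9.76 ± 1.37% in klf1 libraries (SD, n = 4), overlapping, and that of the proteases overlapped too. The complex I sum itself was 14879, 13267, 16955 and 12770 CPM in WT and 4595, 4198, 2927 and 3259 CPM in klf1 libraries, 3.86-fold lower on average. Any group that fell less than this gains in share. All tested genes together summed to 1203291 to 1333230 CPM in WT and 758776 to 815079 CPM in klf1 libraries. Their sum thus also rose relative to complex I, without overlap, and the higher shares are not read as particular to these roles.

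**Figure D4:**
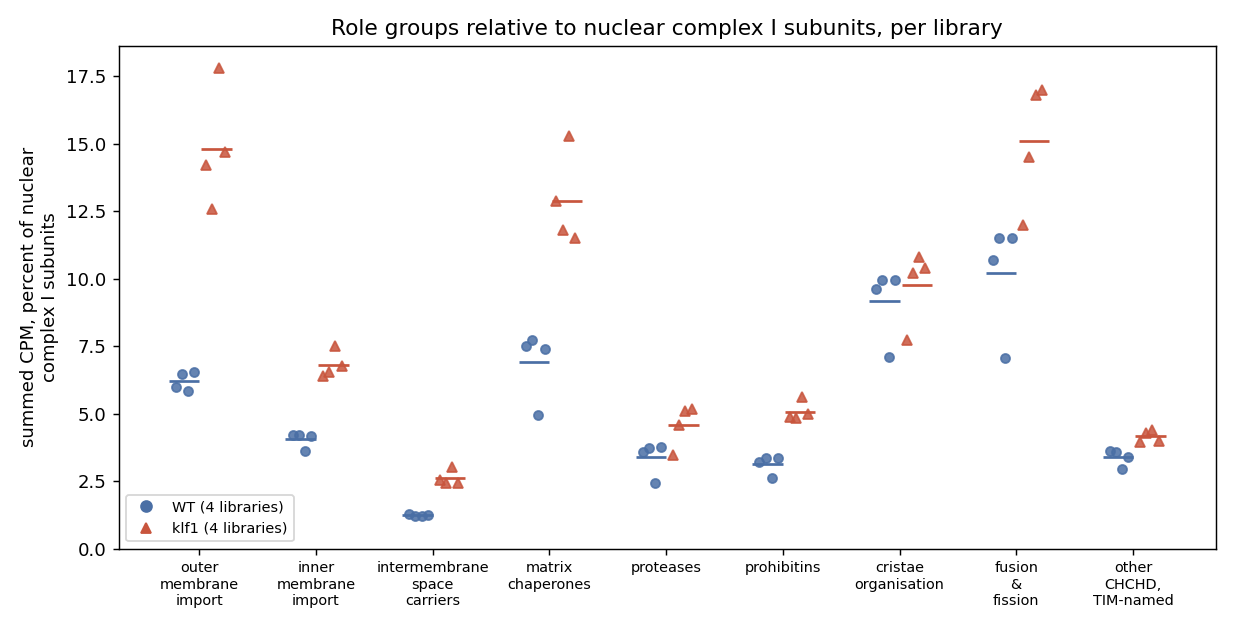
Summed CPM of each role group as a percent of the summed CPM of 34 nuclear complex I subunits in the same library, for 4 WT (circles) and 4 klf1 (triangles) libraries, with group means as bars. Outer membrane import averages 6.21% in WT and 14.8% in klf1 libraries, and the cristae genes 9.17% and 9.76%, with overlap. The ratio does not depend on the scaling, and the sum of all tested genes also rose relative to complex I.

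Other genes of import, quality control and dynamics, from a list that the symbol choice does not cover, were also mostly lower. Of 59 listed, 38 were tested, 30 were called lower and 3 higher, against 29.4% and 32.2% of all genes. The median was -1.07. With library totals 20 were lower and 7 higher, against 13.3% and 65.1% of all genes. Among the import helpers, pam16 of the Hsp70 motor fell by 1.82 ± 0.14 and the co-chaperone dnaja3a by 1.74 ± 0.11. The nucleotide exchange factors grpel1 and grpel2 fell by 0.54 ± 0.19 and 0.29 ± 0.11, and the groups of grpel1 overlapped.

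The kinase and ligase genes of mitophagy were both called lower. pink1, the kinase that marks damaged mitochondria, read 343, 367, 341 and 316 CPM in WT and 77.3, 102, 72.2 and 73.7 CPM in klf1 libraries (-2.07 ± 0.15, edgeR adjusted p = 3.02e-07). park2, the ubiquitin ligase it activates, fell by 2.52 ± 0.18 from 18.1 ± 2.51 CPM (SD, n = 4). Of the outer membrane pores, vdac3 and vdac2 fell by 1.83 ± 0.18 and 1.4 ± 0.17, whereas vdac1 stood at 188 ± 23.1 and 152 ± 15.6 CPM and was not called (edgeR adjusted p = 0.0661).

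The 3 genes called higher were atf5a, mtfr1 and mtfr2. atf5a, whose mammalian counterpart is linked to the mitochondrial unfolded protein response, read 3.79, 6.67, 11.1 and 12.4 CPM in WT and 15.6, 13.1, 14.6 and 12.9 CPM in klf1 libraries (0.73 ± 0.28, edgeR adjusted p = 0.0386). The groups did not overlap but the WT libraries were widely spread. mtfr1, a fission regulator, rose by 0.74 ± 0.16. Its relative mtfr2 rose from 0, 4, 5 and 1 counts to 46, 99, 83 and 80 counts, and a fold from so few WT counts is imprecise.

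Markers of cell types moved in the same libraries. All 10 tested cardiomyocyte markers were lower, with a median of -2.46 and a summed level of 224393 to 268620 CPM in WT and 29813 to 48631 CPM in klf1 libraries, none at 0. Of 11 macrophage and granulocyte markers 10 were higher (median 2.09, sums 259 to 547 and 1158 to 1538 CPM). Of 10 fibroblast and epicardial markers 7 were higher (median 1.21, sums 840 to 1051 and 1751 to 3115 CPM), and all 10 cell cycle genes were higher (median 4.64). Among all tested genes, 29.4% were lower and 32.2% higher. With library totals these shares were 13.3% and 65.1%, and the median of all genes was 0.75. Of 8 endothelial markers 4 were lower and 0 higher (median -0.26), but 0 were lower and 4 higher with library totals (median 0.46). The erythroid list had 2 of 5 lower and 0 higher, against 0 and 2 with library totals, and the mural list 1 of 4 higher, with its member pdgfrb at 0 in all libraries. The part of these shifts in the falls above was not tested.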

How the data were processed

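Poly(A) RNA of adult whole hearts was sequenced from stranded libraries, per the labels' protocols. The authors deposited raw counts per gene for 4 WT and 4 klf1 libraries. The submitters' processing notes name Bowtie2 2.2.8, deepTools 3.1.2 and the build danRer10 without roles; no source used here gives the RNA aligner, counter or use of strand. Single-library counts equalled the joint table in 8 of 8 libraries, and the other 27 of 35 samples were not analysed here. Columns name the genotype and a library number that the sample labels do not carry. Libraries of one genotype differed by more than counting error, with a chi-square of 6.71 to 45.7 for each degree of freedom.

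Genes were filtered with filterByExpr, scaled with TMM (factors 0.75 to 0.831 in WT, 1.226 to 1.317 in klf1) and tested with edgeR 4.0.16 (quasi-likelihood F-test, robust; R 4.3.3), with Benjamini-Hochberg adjustment over 10493 genes at 0.05. The SE is the log2 fold change over the square root of F, an approximation. The fit was run on simulated counts in which few genes changed, in both directions. Far more genes differed in these data, so that run does not test the scaling used here. Alternatives were other scalings and filters, DESeq2 1.42.0, limma-voom (limma 3.58.1), leaving out each library and, added after the results were seen, a replicate block. Ratios used a pseudocount of 0.5 counts, or 5 as an alternative. Per-library values were set for the called genes with the largest changes and the highest level in each role, for defining genes and for every gene not called; values of other genes were chosen after they were seen. The genes, lists and tests were chosen with earlier results of these data known, and the paralog ratios were added after the symbols of the table were seen.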

Additional observations from a re-analysis of the deposited data

Results flagged for a closer look

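Dixon's test for a library far from the other 3 of its genotype picked out 2 of 116 groups, and chance picks about 1 in 20. The ratio of hspd1 to hspe1 counts was 1.17 in WT library 3 and 2.06 to 2.21 in the other WT libraries. The ratio of timm8a to timm8b counts was 1.1 in WT library 1 and 0.863 to 0.889 in the others.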

How the results depend on the processing

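With library totals 26 of the 52 genes were lower and 6 higher, 1399 of all genes lower and 6834 higher, and the median of the 52 was -0.37. With single libraries left out, 42 to 46 were lower and the median ranged from -1.18 (without klf1 library 1) to -1.01. Signs turned with library totals for tomm20 (0.65), tomm40 (0.24), tomm40l (0.6), tomm22 (0.13), tomm6 (0.24), timm10 (0.04), hspd1 (0.08), apoob (0.72), mff (0.49) and timmdc1 (0.5). tomm20 also read 0.01 with upper-quartile factors, and -0.2 to 0.1 with single libraries left out (0.1 without WT library 3, 0.01 without klf1 library 2). apoob read 0.07 with upper-quartile factors, 0.02 without the filter and with 50 counts in 4 libraries, and -0.12 to 0.06 with single libraries left out (0.06 without WT library 3 or klf1 library 3, 0.03 without klf1 library 2). Without its most counted gene, the log2 difference in the share of complex I counts was 0.97 for outer membrane import, 0.59 for inner membrane import, 0.43 for the prohibitins, 0.21 for fusion and fission and 0.82 for the other CHCHD and TIM-named genes. As ratios of klf1 to WT share, with and without that gene, outer membrane import read 2.38 and 1.96 (tomm20). Inner membrane import read 1.68 and 1.51 (timm17a), and the prohibitins 1.62 and 1.34 (phb). Fusion and fission read 1.48 and 1.16 (mfn2), and the other CHCHD and TIM-named genes 1.23 and 1.77 (chchd10). The cause was not tested. DESeq2 and limma-voom each called the same 46 genes lower. The pair of fis1 and mff was not run, since the count table has no row under the symbol fis1. The sample labels repeat no number across genotypes, but the count columns number the libraries 1 to 4 in each. A fit with those numbers as a replicate block, added after the results were seen, called the same 46 genes lower and 1 higher, with a median of -1.08, and 2896 of all genes lower and 3215 higher. Same-numbered libraries did not deviate together (correlations -0.19 to 0.09), so the numbers are not taken as pairs. Depth limits genes of few counts such as mtfr2.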
